A study of Mus musculus with 6 samples.

Results

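Microglia, the resident macrophages of the brain, were compared between cells carrying hashtags 3 and 4 and cells carrying hashtags 1 and 2. The comparison covered 8015 cells, of which 3199 carried hashtags 3 and 4 and 4816 carried hashtags 1 and 2, out of 22145 cells with an assigned hashtag and 36755 barcodes in all. CD11b+ cells of the brain were profiled by CITE-seq, a single-cell method that counts antibody-borne DNA tags for surface proteins alongside RNA. All mice were of the C57BL/6 strain and 12 weeks old. Per the labels, each of 3 pools joined 6 hashed samples, namely a female and a male sample without tumor, at day 14 and at day 21 after tumor implantation. The labels do not say which sample a hashtag number marked, so sex, tumor and day are assigned to neither side, and the hashtags of a side were averaged. They also do not say whether a hashtag number marked the same kind of sample in every pool, so a value given for a hashtag or a side across pools may join different kinds of sample. The tumor line and the number of animals behind a hashed sample are not given in the sources used here, so the p-values measure the spread between these samples, which may be partly technical. A pool was 1 droplet run for all its hashtags, and the replicates are the 6 sums of RNA counts per side, 1 for each pool and hashtag.

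A barcode was kept with at least 500 RNA UMIs (counts of distinct molecules), under 10% mitochondrial UMIs and at least 10 hashtag UMIs, 80% or more of them from 1 hashtag. It was called a microglia when P2ry12, Tmem119, Siglech and Gpr34, genes of resident microglia, together had at least 3 UMIs, and Ms4a7, Ly6c2, Plac8 and Ccr2, genes of infiltrating monocytes and macrophages, together had at most 1. These 8 genes chose the cells and are given without a test. P2ry12, a purinergic receptor of surveying microglia, had a lowest, median and highest value of 1293, 1420 and 1609 CPM (counts scaled to a common library total) under hashtags 3 and 4, against 2038, 2213 and 2675 CPM under hashtags 1 and 2. Gpr34, a lysophospholipid receptor, had 964, 1180 and 1330 CPM against 1592, 1772 and 2144 CPM, and Tmem119 had 979, 1246 and 1467 CPM against 1331, 1530 and 1787 CPM, in the same order of groups. Siglech had 653, 832 and 971 CPM under hashtags 3 and 4, against 844, 949 and 1083 CPM under hashtags 1 and 2. The infiltrating genes stayed low in both by the rule, with Plac8 the highest at 15.0 to 34.5 CPM under hashtags 3 and 4 and 9.61 to 21.0 CPM under hashtags 1 and 2. Just inside the rule, 46 cells (1.44%) under hashtags 3 and 4 and 16 cells (0.332%) under hashtags 1 and 2 had exactly 3 microglial UMIs. Just outside it, 51 and 13 cells had 2. At the other limit, 753 microglia (23.5%) under hashtags 3 and 4 and 725 (15.1%) under hashtags 1 and 2 had 1 infiltrating UMI, and 235 and 78 further cells were left out with 2.

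The share of hashed cells that passed the rule was one of the values known when the hashtags were put into sides. It was 44.5%, 36.5% and 76.1% under hashtag 3 and 29.4%, 28.0% and 43.5% under hashtag 4 in pools 1, 2 and 3, against 94.1%, 91.8% and 95.5% under hashtag 1 and 97.6%, 93.4% and 95% under hashtag 2. Pool 3 stood apart, since only 16.1% of its filtered barcodes had a majority hashtag, and it gave 408 microglia under hashtags 3 and 4 and 333 under hashtags 1 and 2. Pools shared 32 to 53 cell barcodes with each other. The sums held 862127 to 4665166 UMIs under hashtags 3 and 4 and 505129 to 7373019 UMIs under hashtags 1 and 2. The median microglia carried more RNA under hashtags 3 and 4 in each pool, for example 4289 and 4614 UMIs against 3417 and 3156.5 UMIs in pool 1, so list levels per cell are given after each cell was thinned to 2000 UMIs. Xist had 1243 to 1753 CPM under hashtag 3 and 8.21 to 46.8 CPM under hashtag 4, against 1306 to 2006 CPM under hashtag 1 and 7.74 to 26.4 CPM under hashtag 2, so each side held 1 hashtag number with high and 1 with low Xist in each pool.

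Microglia sense their surroundings through receptors such as P2ry12 and Cx3cr1, and their resting identity depends on TGF-beta signalling and on factors such as Sall1. Interferons induce genes for antiviral proteins, for guanylate-binding GTPases and for the presentation of peptides on MHC class I and class II. In injured, aged or tumor-bearing brain, microglia are known to lower homeostatic genes and to raise a disease-associated set that includes Cst7, Apoe, Spp1 and Axl.

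Of 10073 genes tested with edgeR's quasi-likelihood test, 2561 (25.4%) passed an adjusted p of 0.05 (Benjamini-Hochberg over all genes, pool as a block), 1444 (14.3%) higher and 1117 (11.1%) lower under hashtags 3 and 4. In 542 genes (5.38%) the 6 sums of one side all lay above or below the 6 of the other. The median log2 fold change over all genes was -0.03, and -0.17 when sums were scaled by library size alone, where genes called higher numbered 973 and genes called lower 2594. With pool 1 left out, 955 genes were called in all (genes called in either direction), and with pool 2, hashtag 2 or hashtag 4 left out 1507, 1105 and 1611. Without pool 3, the pool of few hashed cells, there were 2541. Library-size scaling also moved list counts, to 17 higher and 1 lower of 25 disease-associated genes to 8 higher and 3 lower of 22 lysosome and lipid genes, to 3 higher and 4 lower of 12 checkpoint genes and to 4 higher and 5 lower of 16 transcription factors. All log2 fold changes below are hashtags 3 and 4 over hashtags 1 and 2, with the standard error of the fit, and adjusted p-values are from this test.

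Type I interferon-induced genes were higher in all their tested members. Of 40 genes of the list, 39 were tested and 39 were higher under hashtags 3 and 4, with a median log2 fold change of 2.79, and in 37 of them the sums did not overlap. The call held for every tested member in each run that left out a pool or a hashtag number. Ifi27l2a, an interferon-induced mitochondrial protein, had 1087, 936 and 749 CPM under hashtag 3 and 1399, 1000 and 848 CPM under hashtag 4 in pools 1, 2 and 3, against 126, 109 and 99.4 CPM under hashtag 1 and 58.6, 39.5 and 39.2 CPM under hashtag 2 (log2 fold change 3.73 ± 0.25, adjusted p = 3.3e-08). All 6 sums of hashtags 3 and 4 stood well above those of hashtags 1 and 2, and hashtag 1 stood above hashtag 2 in each pool. The median microglia had 84%, 85.6% and 85.3% of its hashtag UMIs from the top hashtag under hashtag 1 in pools 1, 2 and 3. That share was 88.3%, 92.6% and 90.5% under hashtag 2, and 90.4% to 96.1% under hashtags 3 and 4. The part of mixed hashtags in these levels was not tested. Zbp1, a sensor of Z-form nucleic acid that can start cell death, was 14.9-fold higher, with 44.9 to 198 CPM against 5.51 to 14.7 CPM. Ifi204, a DNA sensor of the Ifi200 family, was 14.5-fold higher, with 128 to 197 CPM against 3.68 to 18.9 CPM. Ly6a, a small membrane protein induced by interferon, was 13-fold higher, with 93.9 to 525 CPM against 16.7 to 33.1 CPM, and its reads may be shared with other Ly6 genes.

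Genes that act in interferon signalling and in antiviral defence were among those higher. Irf7, a factor that amplifies type I interferon, was 7.39-fold higher and nearly even across the sums of hashtags 3 and 4, with 92.0 to 158 CPM against 11 to 28.2 CPM. Isg15, a ubiquitin-like modifier, had 151 to 360 CPM against 22.1 to 60.0 CPM. Ifit3, which binds foreign RNA with its partners, had 73.0 to 128 CPM against 8.97 to 31.4 CPM, and it has a near-identical copy, Ifit3b, which rose by 3.08 on the log2 scale. The smallest rises in the list were those of Irf9, at 0.77, and Ddx58, the RNA sensor RIG-I, at 0.92.

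The rise was not confined to the cells with the highest counts. Per cell of 2000 UMIs, the median microglia had 7 to 10 UMIs of the type I interferon list under hashtags 3 and 4, against 1 to 2 under hashtags 1 and 2. At the 90th percentile the counts were 19 to 26 against 4 to 6, and at the 10th percentile 1 to 3 against 0. A sum over cells cannot by itself tell more expressing cells from more RNA per cell, and these percentiles are a description, since cells are not replicates. The share of thinned microglia with an Ifit3 UMI was 15.8%, 15.6% and 19.4% under hashtag 3 and 15%, 11% and 13.8% under hashtag 4 in pools 1, 2 and 3, against 2.66%, 2.10% and 4.90% under hashtag 1 and 1.49%, 1.14% and 2.33% under hashtag 2. NK-like cells of these pools, which can express the gene too, had 5.06%, 7.89% and 16%.

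**Figure D1:**
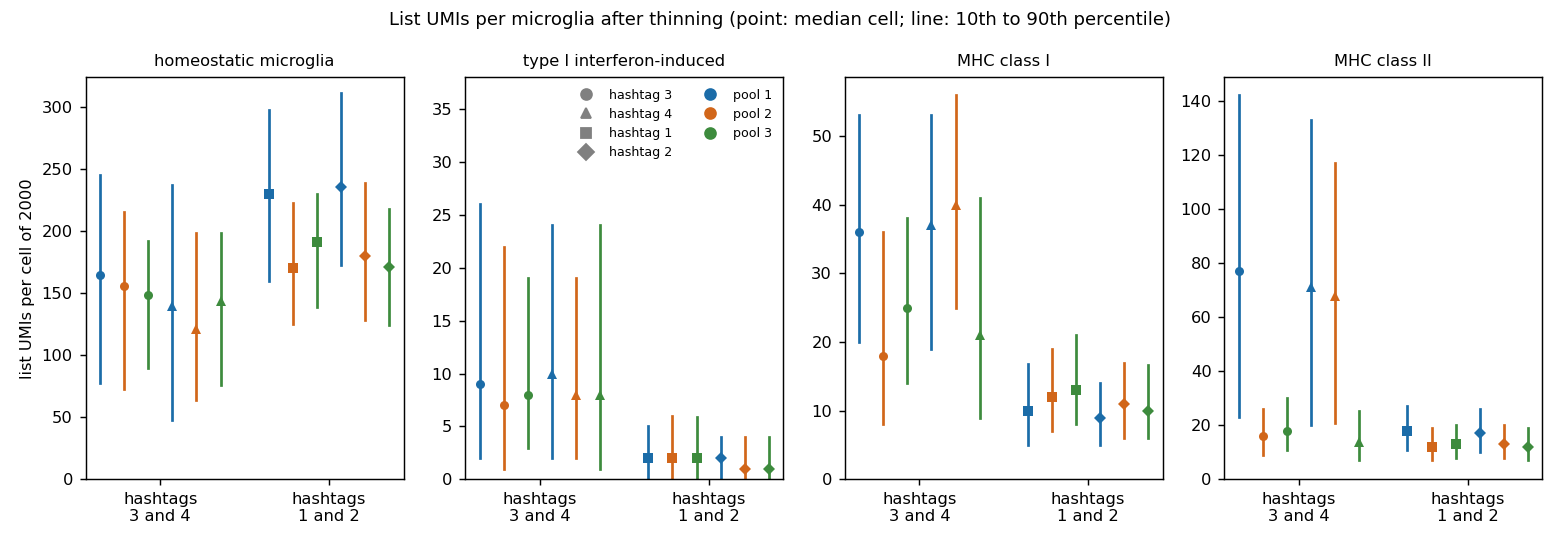
UMIs of 4 gene lists per microglia after each cell was thinned to 2000 UMIs (y axis, list UMIs per cell), with points for the median cell and lines for the 10th to 90th percentile of each pool and hashtag. The type I interferon medians are 7 to 10 under hashtags 3 and 4 and 1 to 2 under hashtags 1 and 2, while MHC class II is high in 3 of the 6 sums of hashtags 3 and 4.

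The interferon-stimulated response element was looked for in the promoters of these genes. The letters GAAA, any 2 bases and GAAA, searched on both strands in the 250 bases before each RefSeq start (GRCm38.p6), were found in 2.98% of 32851 promoters and 3.46% of 27025 genes. They were found in 13 of the 30 type I interferon genes and 11 of the 16 interferon gamma genes with a promoter in the table, and in 0 of 18 homeostatic genes. A match is a description of these letters, with overlap between matches allowed. The promoters of 4 genes with a match are given because their genes lie in the lists that rose most evenly or most steeply. Zbp1 was also picked for printing, but no match was found for it, so it is not shown. Each is written 5′ to 3′ on the strand of the gene with the motif in capitals. All were picked after the values were seen.

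Isg15, chr4:156200845-156200914, minus strand: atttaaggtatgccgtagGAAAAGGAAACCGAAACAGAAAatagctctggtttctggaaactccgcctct
Ifit3, chr19:34583377-34583446, plus strand: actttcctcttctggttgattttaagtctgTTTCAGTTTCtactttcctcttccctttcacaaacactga
Gbp2, chr3:142620574-142620643, plus strand: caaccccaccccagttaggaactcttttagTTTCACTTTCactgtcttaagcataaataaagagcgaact
Cxcl10, chr5:92349063-92349132, minus strand: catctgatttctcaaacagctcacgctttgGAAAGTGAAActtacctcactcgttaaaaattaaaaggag

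Isg15 carried 3 overlapping matches that began 78, 72 and 66 bases before the start. Ifit3 and Gbp2 carried the motif on the other strand, as its reverse complement, beginning 122 and 59 bases before the start, and Cxcl10 carried it 213 bases before the start.

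Interferon gamma-induced genes were higher in 16 of 19 tested members of 22 (14.3% over all genes), with a median log2 fold change of 2.09. The exceptions were Ifngr1, the ligand-binding chain of the interferon gamma receptor, which fell by 0.36, and Socs1 and Ifngr2, at 0.52 and 0.18 without passing the test. In 10 of the 19 the sums did not overlap. Per cell of 2000 UMIs the median was 3 to 6 list UMIs under hashtags 3 and 4, against 3 under hashtags 1 and 2. It was 3 in hashtag 3 of pool 2 and in both hashtags of pool 3. Summed over the list, pool 3 had 1510 and 1836 CPM under hashtags 3 and 4, against 1513 and 1432 CPM under hashtags 1 and 2. Iigp1, an immunity-related GTPase, had 374, 38.8 and 12.7 CPM under hashtag 3 and 196, 185 and 18.8 CPM under hashtag 4 in pools 1, 2 and 3, against 7.39, 4.40 and 0 CPM under hashtag 1 and 2.53, 3.08 and 4.56 CPM under hashtag 2 (log2 fold change 5.46 ± 0.49, adjusted p = 8.6e-07). No sum of hashtags 3 and 4 overlapped those of hashtags 1 and 2, but hashtags 3 and 4 differed widely among themselves, with both hashtags of pool 1 and hashtag 4 of pool 2 on top.

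The same 3 sums were on top for other members. Gbp2, a guanylate-binding protein that attacks the membranes around microbes, had 548, 35.2 and 24.7 CPM under hashtag 3 and 269, 180 and 29.3 CPM under hashtag 4, against 5.52 to 14.2 CPM under hashtags 1 and 2 (log2 fold change 4.37 ± 0.42, adjusted p = 2.0e-06). Cxcl9, a chemokine that attracts T cells, had 193, 67.9 and 10.5 CPM under hashtag 3 and 351, 232 and 15.3 CPM under hashtag 4, against 6.21 to 23.6 CPM under hashtags 1 and 2, so its pool 3 sums lay within the range of hashtags 1 and 2. Il18bp, a soluble inhibitor of interleukin 18 that is not in the list, had 136, 10.6 and 4.49 CPM under hashtag 3 and 101, 66.1 and 10.6 CPM under hashtag 4, against 2.44 to 7.36 CPM under hashtags 1 and 2. Reads of the Gbp family may be divided between near-identical copies.

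Of the 21 MHC class I genes, 19 were higher, with a median of 1.51, and in 15 the sums did not overlap. B2m, the light chain of every class I molecule, had 3985, 3373 and 3656 CPM under hashtag 3 and 4411, 4934 and 3379 CPM under hashtag 4 in pools 1, 2 and 3, against 1247, 1818 and 1590 CPM under hashtag 1 and 969, 1420 and 1393 CPM under hashtag 2 (log2 fold change 1.51 ± 0.13, adjusted p = 5.0e-07). B2m was high in all 6 sums of hashtags 3 and 4, including those with low class II RNA. H2-Q7, a non-classical heavy chain, was 16.0-fold higher, with 199 to 747 CPM against 11.7 to 38.8 CPM, and its reads can be divided with the near-identical H2-Q6, which was 12.4-fold higher. Nlrc5, the activator of class I genes, was 10.2-fold higher and Tap1, a subunit of the peptide transporter, 5.17-fold higher. Calr and Pdia3, general folding proteins of the endoplasmic reticulum, were at 0.25 each and did not pass the test. Per cell of 2000 UMIs the median was 18 to 40 class I UMIs under hashtags 3 and 4, against 9 to 13 under hashtags 1 and 2.

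MHC class II was high in only 3 of the 6 sums of hashtags 3 and 4. All 10 list members passed the test as higher, with a median of 1.88, but in only 1 of them, Cd74, did the sums not overlap. Cd74, the invariant chain that guides class II molecules, had 18180, 368 and 343 CPM under hashtag 3 and 16185, 14235 and 492 CPM under hashtag 4 in pools 1, 2 and 3, against 256, 248 and 197 CPM under hashtag 1 and 212, 263 and 238 CPM under hashtag 2 (log2 fold change 4.25 ± 0.92, adjusted p = 0.0028). H2-Aa, an alpha chain that presents peptides to CD4 T cells, had 3479, 80.6 and 91.3 CPM under hashtag 3 and 3081, 3677 and 111 CPM under hashtag 4, against 61.0, 75.8 and 66.2 CPM under hashtag 1 and 48.9, 91.7 and 70.2 CPM under hashtag 2 (log2 fold change 4.09 ± 0.89, adjusted p = 0.0030). Both hashtags of pool 1 and hashtag 4 of pool 2 were therefore high, and hashtag 3 of pool 2 and both hashtags of pool 3 lay at or near the level of hashtags 1 and 2. In pool 2, hashtags 3, 1 and 2 were low in the same droplet run in which hashtag 4 was high.

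The partners H2-Ab1 and H2-Eb1 followed the same order, with 3287 to 4516 CPM in the 3 high sums and 72.6 to 135 CPM in the other three. Ciita, the activator of class II genes, was too low for the test, with 81.3, 0.235 and 0.748 CPM under hashtag 3 and 35.5, 57.8 and 0 CPM under hashtag 4, against 0 to 1.84 CPM under hashtags 1 and 2. After thinning to 2000 UMIs, 80.5%, 12.5% and 16.1% of microglia under hashtag 3 and 81.2%, 87.2% and 16.6% under hashtag 4 had an H2-Aa UMI, against 9.41%, 11.3% and 14.7% under hashtag 1 and 8.66%, 13.3% and 16.3% under hashtag 2. The 95% Wilson interval was 84.3% to 89.7% for hashtag 4 of pool 2, against 11.5% to 15.2% for hashtag 2 of that pool, and covers counting error only. NK-like cells of the same pools, which should lack the gene, had 13.6%, 18% and 26% at median depths of 2836, 3851.5 and 3760 UMIs, so the shares of 8.66% to 16.6% are at or below background in their own pool. The count of class II calls rested on pool 1: without it 2 of 10 members passed, without hashtag 4 it was 5, and without hashtag 1 it was 6.

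**Figure D2:**
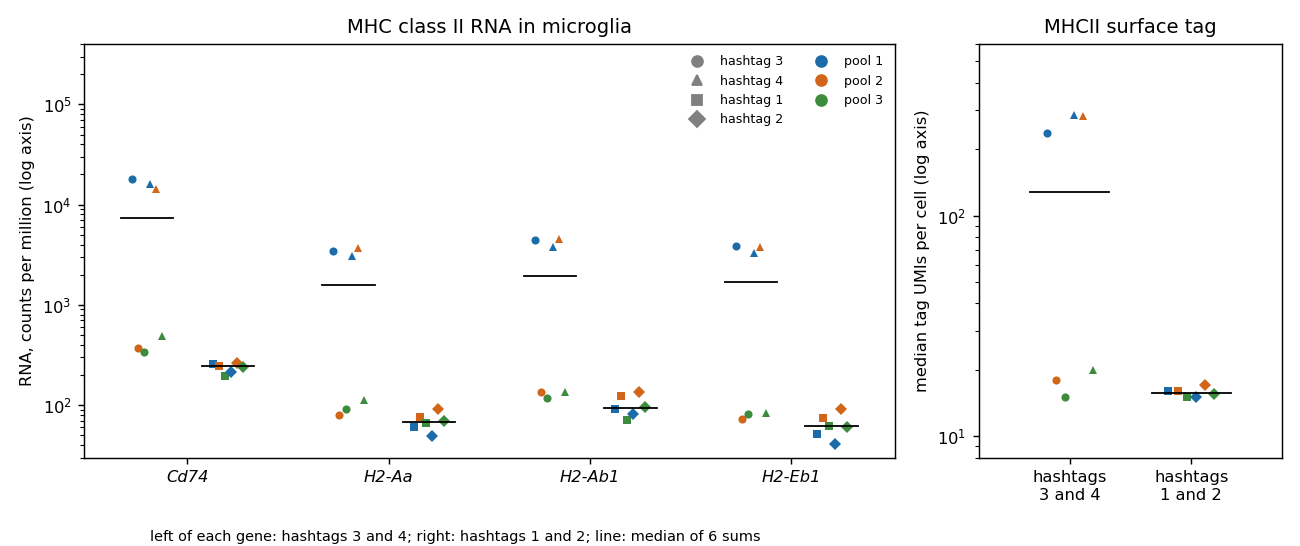
MHC class II RNA (left, CPM on a log axis) and the MHCII surface tag (right, median tag UMIs per cell on a log axis) in each pool and hashtag, with lines for the median of 6 sums. H2-Aa is at 3081 to 3677 CPM in both hashtags of pool 1 and hashtag 4 of pool 2, and at 48.9 to 111 CPM in the other 9 sums. The tag follows the same division, with 237 to 286 against 15 to 20 UMIs.

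The promoters of 2 class II genes are given because their genes moved together across the sums, with the letters CTGATTGG, an inverted CCAAT box known as the Y box, in capitals. This motif was added after the values were seen. On either strand it was found in 3.83% of the 32851 promoters and in 6.40% of the tested genes with a promoter in the table. It was in 3 of the 8 such class II genes, H2-Aa, H2-Eb1 and H2-Oa, and in 6 of 19 class I genes. Other lists held it too, with 4 of 17 immediate-early and heat shock, 4 of 17 lysosome and lipid and 4 of 24 cell cycle genes. In the type I interferon list it was in 0 of 30 genes.

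H2-Aa, chr17:34287837-34287904, minus strand: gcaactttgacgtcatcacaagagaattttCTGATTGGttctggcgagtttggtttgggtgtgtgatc
H2-Eb1, chr17:34305775-34305842, plus strand: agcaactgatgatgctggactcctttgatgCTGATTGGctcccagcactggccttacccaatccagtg

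The motif began 51 bases before the start of H2-Aa and 62 bases before that of H2-Eb1, on the strand of the gene in both.

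Homeostatic genes fell in 20 of 27 tested members and rose in 0, with a median log2 fold change of -0.42. Fcrls, an Fc receptor-like gene of rodent microglia, had 878, 1597 and 1207 CPM under hashtag 3 and 874, 823 and 1417 CPM under hashtag 4 in pools 1, 2 and 3, against 2087, 2138 and 2379 CPM under hashtag 1 and 2448, 1754 and 1679 CPM under hashtag 2 (log2 fold change -0.90 ± 0.16, adjusted p = 0.00065). The sums did not overlap. Ecscr fell by 0.68, Ltc4s, a leukotriene synthase, by 0.65 and P2ry13, an ADP receptor, by 0.64, each without overlap. Cx3cr1, the receptor for the neuronal chemokine fractalkine, had 2353 to 3343 CPM under hashtags 3 and 4, against 3595 to 4091 CPM under hashtags 1 and 2, without overlap. Sall1, the factor that maintains microglial identity, fell by 0.42 with overlapping sums. The other 7 tested members, Serpine2, Olfml3, Crybb1, Bhlhe41, Cd33, Il7r and Bin1, were between -0.18 and 0.11 and did not pass.

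The fall was uneven between cells. Per cell of 2000 UMIs, the 10th percentile of homeostatic UMIs was 48.0 to 90.1 under hashtags 3 and 4, against 124.8 to 173 under hashtags 1 and 2, with no overlap. Medians were 121.5 to 164.5 against 170 to 236. The 90th percentiles, 192 to 244.9 against 218 to 311, overlapped only between pools. Within each pool both hashtags 3 and 4 lay below both hashtags 1 and 2, for example 215.3 and 198.8 against 223 and 239 in pool 2. The cells were chosen by 4 genes that are themselves homeostatic, and without the pool block 9 of 27 members passed.

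TGF-beta signalling genes fell in 4 of 11 tested members and rose in 0, beside 11.1% of all genes lower. Tgfbr1, the signalling receptor, had 599 to 740 CPM against 747 to 1024 CPM (log2 fold change -0.46 ± 0.09, adjusted p = 0.0010). Itgav, an integrin chain that helps to activate latent TGF-beta, Smad3 and Tgfb1 fell by 0.42, 0.34 and 0.29. Tgfbr2 was at 0.02 and Nrros, which holds the latent factor on microglia, at 0.07.

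**Figure D3:**
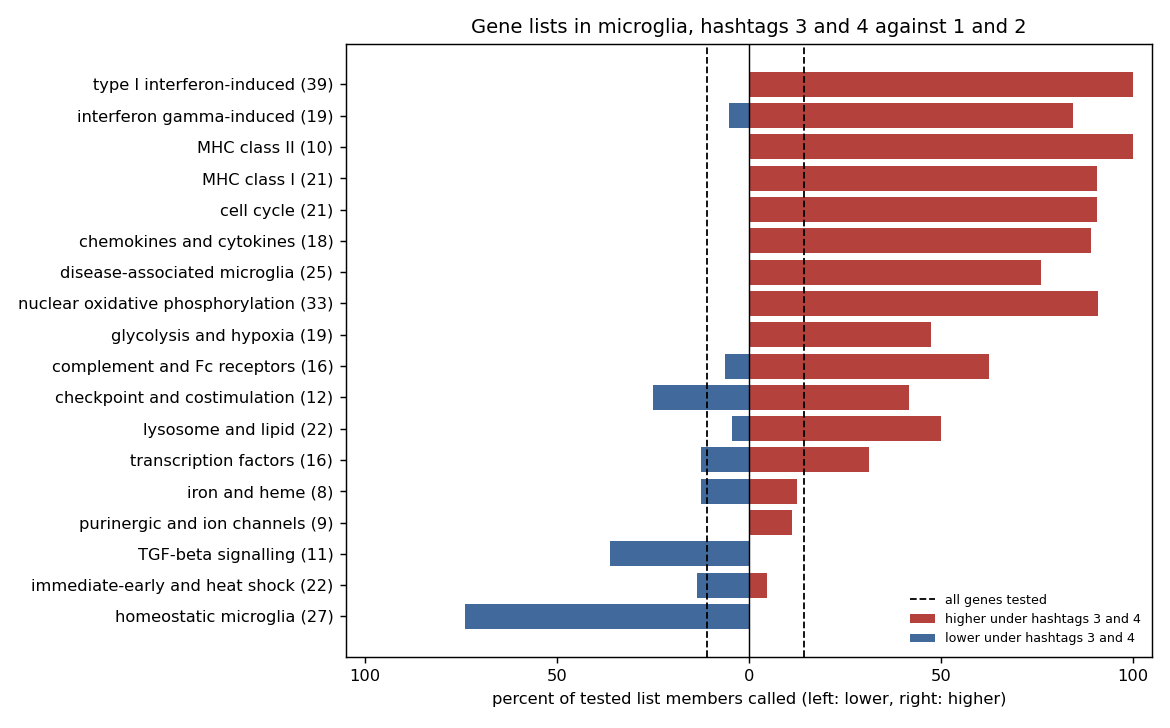
Percent of the tested members of each gene list (x axis; number tested in brackets) that passed an adjusted p of 0.05 as lower (left) or higher (right) under hashtags 3 and 4, ordered by the median log2 fold change. Dashed lines give the shares over all genes, 11.1% lower and 14.3% higher. Type I interferon (39 of 39) and homeostatic genes (20 of 27 lower) are at the ends.

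Of the 28 disease-associated genes 25 were tested, with 19 higher, 0 lower and a median of 0.69. Cst7, an inhibitor of lysosomal cathepsins, had 148, 166 and 134 CPM under hashtag 3 and 258, 166 and 99.7 CPM under hashtag 4 in pools 1, 2 and 3, against 10.6, 6.21 and 7.36 CPM under hashtag 1 and 9, 6.41 and 12.8 CPM under hashtag 2 (log2 fold change 4.42 ± 0.18, adjusted p = 4.9e-10). Its 6 sums under hashtags 3 and 4 were close to each other and far from the rest. Cd72, a receptor with inhibitory motifs, was 12.2-fold higher, with 60.3 to 172 CPM against 6.28 to 12.5 CPM. Axl, a receptor for phosphatidylserine-bound Gas6, was 8.68-fold higher, with 29.4 to 82.0 CPM against 3.68 to 10.6 CPM. Itgax, which encodes CD11c, was 4.87-fold higher without overlap. Summed over the list, the median cell of 2000 UMIs had 45 to 57 UMIs under hashtags 3 and 4, against 44 to 53 under hashtags 1 and 2. These medians overlapped, and in pool 1 hashtag 3 (46) lay below hashtags 1 and 2 (53 and 51).

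Spp1 and Apoe differed widely between the sums of hashtags 3 and 4. Spp1, the secreted protein osteopontin, had 12.7, 1190 and 222 CPM under hashtag 3 and 130, 252 and 41.1 CPM under hashtag 4 in pools 1, 2 and 3, against 1.39, 31.3 and 5.52 CPM under hashtag 1 and 3.16, 12.3 and 8.21 CPM under hashtag 2 (log2 fold change 4.95 ± 0.66, adjusted p = 4.9e-05). One sum, hashtag 3 of pool 2, exceeded the others more than 4-fold. Hashtag 3 of pool 1 lay above hashtags 1 and 2 of its own pool and below hashtag 1 of pool 2. Apoe, the lipid carrier of the brain, had 1376, 8580 and 6841 CPM under hashtag 3 and 1931, 2073 and 3414 CPM under hashtag 4, against 1021, 1133 and 1470 CPM under hashtag 1 and 692, 690 and 685 CPM under hashtag 2 (log2 fold change 1.93 ± 0.35, adjusted p = 0.00070). Its 3 highest sums were those with low class II RNA. For Apoe too, hashtag 3 of pool 1 lay above hashtags 1 and 2 of its own pool, and below hashtag 1 of pool 3. Trem2, the lipid receptor on which the full disease-associated state depends in mouse models, was at -0.12 ± 0.09 and Tyrobp, its adaptor, at 0.16, and neither passed.

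Of 16 tested complement and Fc receptor genes, 10 were higher and 1 was lower, beside 14.3% and 11.1% of all genes. C4b, the opsonin of the classical pathway, had a 69.4-fold rise, with 350, 87.1 and 40.4 CPM under hashtag 3 and 423, 387 and 45.8 CPM under hashtag 4 in pools 1, 2 and 3, against 4.16, 2.84 and 3.68 CPM under hashtag 1 and 2.84, 5 and 4.56 CPM under hashtag 2 (log2 fold change 6.12 ± 0.43, adjusted p = 7.4e-08). All 6 sums were above those of hashtags 1 and 2, with the 3 class II-high sums on top again, and reads may be shared with C4a. Fcgr4, a receptor for IgG2, was 10.9-fold higher, with 65.8 to 213 CPM against 10.9 to 20.3 CPM. C3 and Cfb, of the amplification loop, rose by 1.89 and 2.58, and C1qa, which tags synapses and debris, by 0.31.

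Chemokines and cytokines were higher in 16 of 18 tested members of 24, with a median of 1.32, and lower in 0. Ccl12, a ligand of CCR2, had 2366, 1274 and 490 CPM under hashtag 3 and 1688, 818 and 704 CPM under hashtag 4 in pools 1, 2 and 3, against 221, 194 and 201 CPM under hashtag 1 and 143, 127 and 191 CPM under hashtag 2 (log2 fold change 2.65 ± 0.26, adjusted p = 2.2e-06). Il1b, a pyrogenic cytokine, was 5.36-fold higher, with 311 to 671 CPM against 64.1 to 135 CPM, and neither gene overlapped. Ccl5 and Ccl7, which attract T cells and monocytes, were 7.66-fold and 10.4-fold higher with overlap. Cxcl10, a member of the interferon gamma list and not of this one, had 777, 490 and 39.7 CPM under hashtag 3 and 859, 281 and 256 CPM under hashtag 4, against 30.6 to 151 CPM under hashtags 1 and 2. Il1rn, the antagonist of interleukin 1, rose by 2.27 beside Il1b. The NF-kB letters GGGA, any 2 bases and TTCC were in 3 of the 17 genes of the list with a promoter. They were in 1.21% of all promoters, 1.36% of all genes and 1.55% of tested genes. The AP-1 letters TGACTCA were in 4 of 17, against 4.46%, 5.16% and 3.59% in the same order. The NF-kB letters were in Cxcl2, in Cxcl1, which was not tested, and in Il6, which did not pass. The AP-1 letters were in Il1a, Il1rn, Tnfsf13b and again Il6.

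Of 12 tested checkpoint and costimulation genes, 5 were higher and 3 lower, beside 14.3% and 11.1% of all genes. Those counts became 3 and 4 under library-size scaling and 2 and 1 of 11 without pool 1. Cd274, which encodes PD-L1, had 48.7, 25.6 and 18 CPM under hashtag 3 and 50.5, 39.3 and 28.2 CPM under hashtag 4 in pools 1, 2 and 3, against 5.54, 10.3 and 5.52 CPM under hashtag 1 and 3.79, 8.08 and 5.47 CPM under hashtag 2 (log2 fold change 2.48 ± 0.24, adjusted p = 1.9e-06). The sums did not overlap. Cd40, a costimulatory receptor, rose by 2.37 at a low level. Vsir, which encodes the inhibitory ligand VISTA, fell by 0.51 without overlap, and Cd200r1 and Sirpa, receptors for the restraining ligands CD200 and CD47, fell by 0.43 and 0.24.

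**Figure D4:**
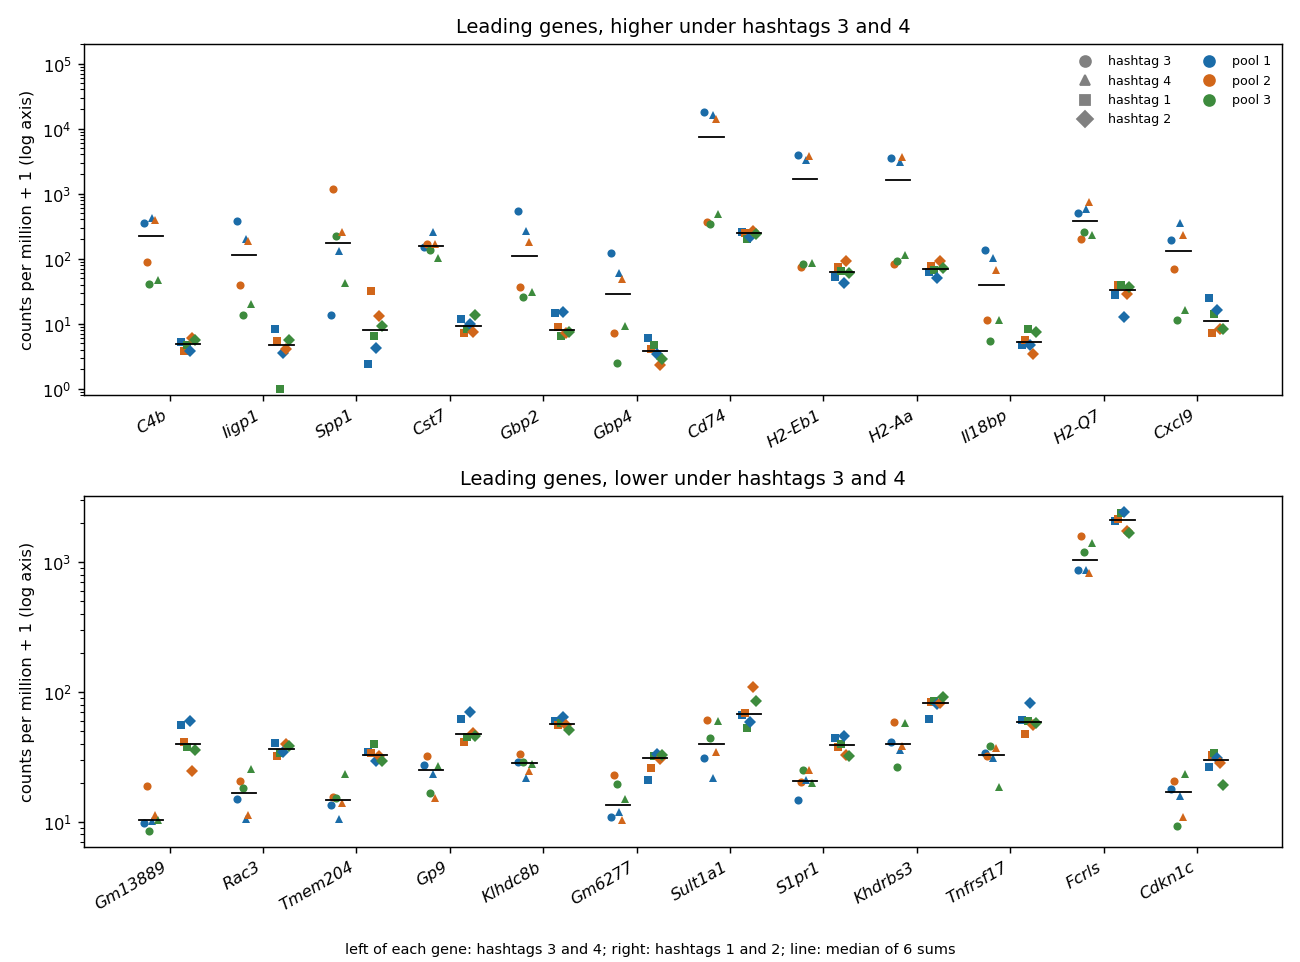
CPM plus 1 (log axis) of the 12 genes with the largest rise and the 12 with the largest fall among those named by rule, in each pool and hashtag, with lines for the median of 6 sums. Cst7 is high in all 6 sums of hashtags 3 and 4, while Cd74, H2-Aa and H2-Eb1 divide them 3 and 3.

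Nuclear oxidative phosphorylation genes were higher in 30 of 33 tested members, with a median of 0.42 and a largest rise of 0.67 for Ndufa1, a subunit of complex I. That count was 14 after thinning, 5 without the pool block, 18 without pool 1 and 17 without hashtag 2. Glycolysis and hypoxia genes were higher in 9 of 19 (14.3% over all genes), led by Mif, a cytokine that hypoxia induces, at 0.92. Among 22 tested lysosome and lipid genes 11 were higher and Npc1 was lower, beside 14.3% and 11.1% of all genes. Psap, the precursor of lipid-degrading cofactors, was at 0.68 and Npc2, a cholesterol carrier, at 0.76. Cd36, a scavenger receptor for lipids, had 35.5, 13.4 and 2.24 CPM under hashtag 3 and 27.7, 33.7 and 14.1 CPM under hashtag 4, against 0.462, 0.517 and 7.36 CPM under hashtag 1 and 0.316, 0.128 and 0 CPM under hashtag 2 (log2 fold change 5.63 ± 0.56, adjusted p = 2.7e-06). Pool 3 was the exception, with hashtag 1 above hashtag 3, but at the floor of counting. After thinning, 0 of 102 and 0 of 242 of their cells had a Cd36 UMI. In iron handling, Slc40a1, the iron exporter ferroportin, fell by 0.69 and Slc11a1, a metal transporter of phagosomes, rose by 0.45. The other 6 of 8 did not pass, where all genes gave 14.3% higher and 11.1% lower.

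Cell cycle genes were higher in 19 of 21 tested members of 29, with a median of 1.32. Top2a, a topoisomerase of dividing cells, had 57.4, 12.7 and 2.24 CPM under hashtag 3 and 50.5, 78.6 and 9.39 CPM under hashtag 4, against 0.462, 10.9 and 0 CPM under hashtag 1 and 1.58, 2.69 and 1.82 CPM under hashtag 2 (log2 fold change 3.69 ± 0.54, adjusted p = 0.00012). A Top2a UMI was seen in 3.80% and 4.11% of thinned microglia under hashtags 3 and 4 of pool 1, against 0.178% and 0.172% under hashtags 1 and 2, and in 2.22% of NK-like cells. In pool 2 the shares were 0.519% and 3.85% against 0.809% and 0.305%, so hashtag 3 of that pool lay between hashtags 1 and 2, and NK-like cells had 1.75%. In pool 3 they were 0.413% (1 of 242 cells) and 1.38% (2 of 145) against 0 of 102 and 0 of 215 cells. The upper Wilson limits of the latter, 3.63% and 1.76%, lay above both shares, so these few cells could not show a difference. NK-like cells of pool 3 had 10% (5 of 50 cells) and may express the gene themselves. The 90th percentile of list UMIs per cell was 6 to 7 against 5 to 7, so the typical cell differed little. After thinning before the gate 3 of 12 members passed, and without pool 1 it was 9 of 19.

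Immediate-early and heat shock genes, which enzymatic dissociation can induce, gave 1 of 22 higher and 3 lower, where all genes gave 14.3% and 11.1%. The counts became 0 and 0 without hashtag 2, and 1 and 0 without pool 2. Jun, Jund and Rhob fell by 0.49, 0.50 and 0.51 with overlapping sums, and Fos and Egr1 were at -0.03 and -0.09 without passing. Among 16 transcription factors 5 were higher and 2 lower, beside 14.3% and 11.1% of all genes. The counts became 4 and 5 under library-size scaling, and 1 and 1 both without pool 1 and without the pool block. By gene, the larger changes were those of Maf, a factor of mature macrophages, lower by 0.66 without overlap, and of Bhlhe40, higher by 2.17. Spi1, which encodes PU.1, was at -0.05 and Irf8 at 0.19, and neither passed. Of 9 tested purinergic receptor and channel genes, P2rx4, an ATP-gated channel, rose by 0.41, and 8 did not pass. That share of higher genes was below the 14.3% over all genes.

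The genes that fell most did so by less than the leading rises. Gm13889, a predicted gene, had 8.70, 17.8 and 7.48 CPM under hashtag 3 and 9.22, 10.2 and 9.39 CPM under hashtag 4, against 55.0, 40.1 and 36.8 CPM under hashtag 1 and 58.9, 23.6 and 34.6 CPM under hashtag 2 (log2 fold change -1.88 ± 0.24, adjusted p = 2.8e-05). Rac3, a small GTPase of the cytoskeleton, had 9.56 to 24.6 CPM against 31.0 to 39.7 CPM, and S1pr1, a receptor for sphingosine 1-phosphate, 13.6 to 24.3 CPM against 31.0 to 44.8 CPM. The other 9 of the 12 leading falls, Tmem204, Gp9, Klhdc8b, Gm6277, Sult1a1, Khdrbs3, Tnfrsf17, Fcrls and Cdkn1c, lay between -1.23 and -0.89.

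No tested marker of border macrophages, neutrophils, B cells, oligodendrocytes, astrocytes or neurons passed, while none of the 5 monocyte markers was high enough to test, with summed levels of 4.69 to 12 CPM under hashtags 3 and 4 and 5.21 to 23.7 CPM under hashtags 1 and 2. The neutrophil list summed to 140 to 256 CPM under hashtags 3 and 4 and 144 to 309 CPM in 5 sums of hashtags 1 and 2, but to 1229 CPM in hashtag 2 of pool 3. There S100a8 and S100a9, a pair of abundant neutrophil proteins, had 418 and 434 CPM. Without pool 1, and without its hashtag 3 sum, 2 of the 3 tested neutrophil markers passed as lower. Of the 4 infiltrating macrophage markers, 3 were tested and Fn1 and Tgfbi were higher, by 3.53 and 0.50, and the list summed to 43.0 to 104 CPM against 26.3 to 66.2 CPM. Of the 10 NK and T cell markers, Gzma and Klrd1 were tested and Gzma, a granule protease, was higher (log2 fold change 3.52 ± 0.73, adjusted p = 0.0019), with 224 and 61.0 CPM under hashtag 4 of pools 1 and 3 and at most 21.6 CPM in the other sums. That call was lost when cells with a Scrublet score of 0.2 or more were left out (log2 fold change 2.03, adjusted p = 0.064) and without hashtag 2 (3.76, adjusted p = 0.060). The NK and T cell list summed to 11.2 to 361 CPM under hashtags 3 and 4 and 9.31 to 22.3 CPM under hashtags 1 and 2, where Cd3e was at 0. Lyve1, Ly6g, Ms4a1 and Cldn5 were at 0 under hashtags 3 and 4. A Gzma UMI was seen in 0.346% to 3.45% of thinned microglia under hashtags 3 and 4 and 0.465% to 1.26% under hashtags 1 and 2, against 94.3% to 96.5% of NK-like cells. Pecam1, the 1 endothelial marker tested, fell by 0.47, and no dendritic cell or erythrocyte marker was high enough to test. The part of these markers in the results above was not tested.

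Surface tags gave no call. Values are centred log ratios, in which each tag's logged count (natural log) has the cell's average over the 10 protein tags subtracted, and sums were compared by exact permutation within pools (216 relabellings, two-sided, smallest possible p = 0.00926, adjusted over 10 tags). None of 10 tags passed and 4 had an unadjusted p under 0.05. The design limits this, since 1 tag alone at the smallest p has an adjusted p of 0.0926. TMEM119 was lower, by -0.76, -0.53 and -0.27 in pools 1, 2 and 3, with a mean of -0.52 (exact permutation p = 0.00926, adjusted p = 0.0926), and its median raw counts were 39 to 86 under hashtags 3 and 4, against 49 to 97 under hashtags 1 and 2. PD-L1 differed by 0.25 (exact p = 0.0185, adjusted p = 0.0926), in the direction of its RNA in each pool, with 18 to 34 against 10 to 19 raw counts.

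The MHCII tag divided the sums as its RNA did. Its median raw count was 237, 18 and 15 under hashtag 3 and 286, 284 and 20 under hashtag 4 in pools 1, 2 and 3, against 16, 16 and 15 under hashtag 1 and 15, 17 and 15.5 under hashtag 2. The difference in centred log ratio was 1.92, 1.15 and 0.11 in the 3 pools (exact permutation p = 0.0278, adjusted p = 0.0926). CD74 protein, read with an antibody labelled CD74 (CLIP), did not follow its RNA, with 5 to 10 raw counts against 5 to 9. CD11b differed by -0.25 (exact p = 0.0463, adjusted p = 0.111), while Itgam RNA was at 0.03 ± 0.07. CD52 differed by -0.04, while Cd52 RNA was 3.75-fold higher without overlap, and its tag had only 2 to 5 raw counts against 1 to 3. Cells under hashtags 3 and 4 carried more tags in all in pool 1, with a mean of 1388 and 1663 against 802 and 722, and on log2 raw counts CD11b, CD45, Ly6C, Gr-1, CD74 and CD52 turned to higher values, by 0.031 to 0.33.

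**Figure D5:**
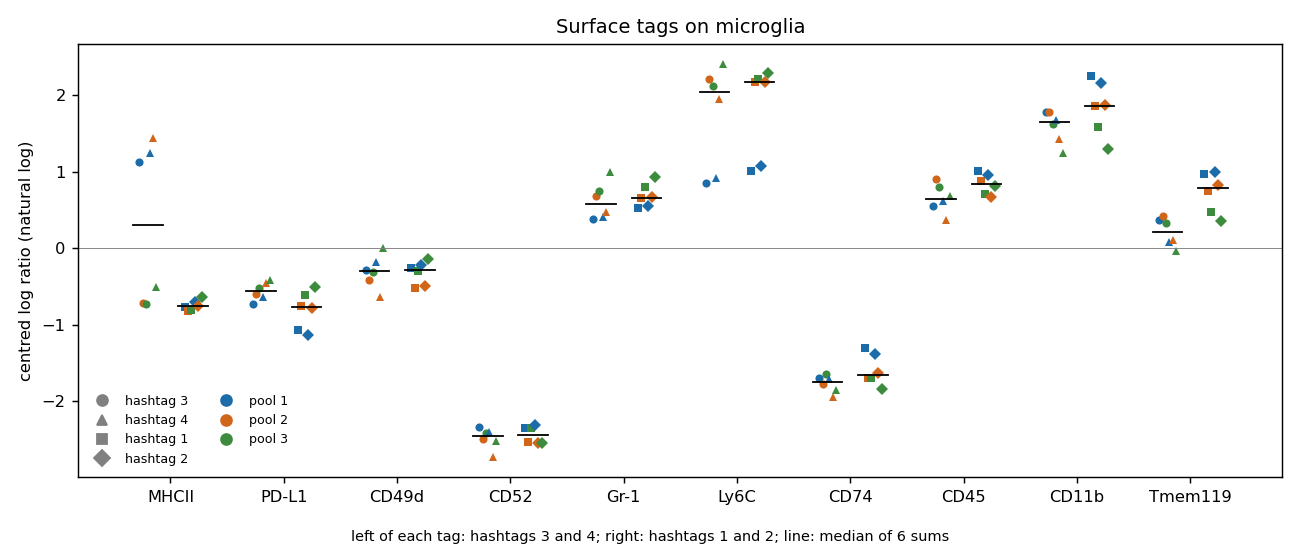
Centred log ratio (natural log, y axis) of the 10 surface tags on microglia in each pool and hashtag, with lines for the median of 6 sums, ordered by the difference of hashtags 3 and 4 minus hashtags 1 and 2. MHCII divides the sums of hashtags 3 and 4 into 3 high and 3 low, and Tmem119 is lower by 0.27 to 0.76 in each pool.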

How the data were processed

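The matrices deposited by the authors held UMI counts per gene or antibody tag and barcode, not normalized, for 3 pools (13925, 11010 and 11820 barcodes). Build mm10, Seurat 3, bcl2fastq 2.20.0.422 and Cell Ranger (3.0.1, 4.0.0) stand in the submitters' processing notes, while the matrix headers give 3.1.0 and 4.0.0. No source used here states the counting settings. Across pools, 30406 shared genes were joined by Ensembl identifier.

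Counts of microglia were summed per pool and hashtag (12 sums) and fitted with edgeR 4.0.16 (R 4.3.3; quasi-likelihood, TMM scaling, filterByExpr, pool as a block). CPM use TMM-scaled totals. Pools paired the sums: deviations from the side means correlated at 0.118 to 0.641 within pools and -0.482 to 0.262 between them, and the labels give a pool as 1 library. Within each pool, the hashtags of a side differed beyond the sampling noise of counts (chi-square per degree of freedom 2.63 to 22.0). Variation between cells adds to this value, and sums of different pools were not compared. Whether any sum was a repeat was therefore not tested. Doublets were removed only by the hashtag majority; Scrublet called 0, 494 and 7 barcodes in pools 1 to 3, and a score limit of 0.2 was an alternative. The fit was tested on simulated counts. DESeq2 1.42.0, library-size scaling, other gates, thinning, no low-count filter and left-out sums, hashtags and pools were alternatives. NK-like background cells had at least 3 UMIs of NK genes. Thinning to 2000 UMIs left out 107 shallower microglia under hashtags 3 and 4 and 263 under hashtags 1 and 2. Wilson intervals (95%) cover counting error only.

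Named genes had an adjusted p under 0.05, the same sign in all 3 pools and a mean of at least 20 CPM: the 12 largest rises, the 12 largest falls and up to 4 per list, plus genes of the tags and of the cell rule; others named were chosen after their values were seen. The members, sides and gene lists were chosen with earlier results of these data known. Promoter sequences are RefSeq's (GRCm38.p6). A few genes are not reported here.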

Additional observations from a re-analysis of the deposited data

Results flagged for a closer look

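In 13 of 208 groups of 6 sums (6.25%, where chance gives about 5%), the highest or lowest sum lay far from the other 5. Under hashtags 3 and 4, Spp1 had 1190 CPM in hashtag 3 of pool 2, where the median of the others was 130 CPM. Gm13889 had 17.8 CPM in the same sum, against 9.22 CPM. Gzma had 224 CPM in hashtag 4 of pool 1, against 14.8 CPM. Slc11a1, a metal transporter, had 204 CPM in hashtag 4 of pool 2, against 152 CPM. Tnfrsf17 had 17.6 CPM in hashtag 4 of pool 3, against 32.7 CPM, and Ccr2, a gene of the cell rule, had 7.04 CPM there, against 2.35 CPM.

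Under hashtags 1 and 2, Spp1 had 31.3 CPM in hashtag 1 of pool 2, where the median of the others was 5.52 CPM. In hashtag 1 of pool 1, Ccl5 had 75.3 CPM against 38.6 CPM, Cd52 had 499.6 CPM against 282 CPM, and Khdrbs3 had 60.5 CPM against 82.5 CPM. Cd86 had 208.2 CPM in hashtag 2 of pool 2, against 243 CPM. Itga4 had 9.20 CPM in hashtag 1 of pool 3, against 1.81 CPM. Ly6g had 0.128 CPM in hashtag 2 of pool 2, and was at 0 in the others. Both Itga4 and Ly6g rested on very few UMIs there, near the floor of counting.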

How the results depend on the processing

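Of all genes called (2561, with genes called higher 1444 and genes called lower 1117), the number became 997 (662 and 335) when cells were thinned to 2000 UMIs before the gate, 846 (584 and 262) at a 95% hashtag majority, which left 9 sums and no sum of hashtag 1, and 965 (687 and 278) with no replicate block. Library-size scaling gave 2594 lower calls. Leaving out 1 pool, hashtag or sum gave 955 to 2640 calls, 682 to 1498 higher and 273 to 1170 lower: without pool 1 there were 955 (682 and 273), without pool 2 1507 (924 and 583), without hashtag 2 1105 (757 and 348), without hashtag 4 1611 (561 lower), without hashtag 1 567 lower, and without hashtag 2 of pool 1 699 lower. The cause was not tested, apart from the fewer sums or UMIs that these settings leave. No gene called turned to a call in the other direction in any of the 30 settings. Of 84 named genes tested, 51 kept their direction and their call in each of the 30 settings that tested them. Some settings, such as thinning before the gate, did not test every named gene. Itgam, not called, turned to -0.11 under library-size scaling, and ranged from -0.028 (without pool 1) to 0.081 (without hashtag 1) with sums left out, including -0.027 without hashtag 2 and -0.0069 without hashtag 4 of pool 1.

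No tag was called on any of the 3 scales. With a pool left out, the relabellings are too few for any tag to pass, so those runs are given as values only. On log2 raw counts CD11b, CD45, Ly6C, Gr-1, CD74 and CD52 turned to 0.031, 0.12, 0.28, 0.28, 0.13 and 0.33, CD52 to 0.10 on log2 counts per 1000 tags, and the CD49d tag ranged from -0.0075 without pool 3 to 0.036 without pool 2 (CD11b tag, CD45 tag, Ly6C tag, Gr-1 tag, CD74 tag and CD52 tag kept their direction there). Pool 3, with the fewest UMIs, limits what can be seen for genes of low level.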

Other observations

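Microglia under hashtags 5 and 6, which entered no comparison above, had class II RNA in all 3 pools. H2-Aa was at 1170, 2756 and 1902 CPM under hashtag 5 and 2633, 2074 and 2409 CPM under hashtag 6 in pools 1, 2 and 3, scaled to all UMIs of the sum, from 35 to 505 cells each. Cst7 was at 150 to 291 CPM, C4b at 255 to 436 CPM and Ifit3 at 72.6 to 196 CPM in these 6 sums.

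The CCR2 tag was measured in pools 2 and 3 only. Its median raw count on microglia was 9 and 11 under hashtags 3 and 4 of pool 2 and 11 and 16 in pool 3, against 9 and 9 and 12 and 12 under hashtags 1 and 2 of the same pools.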
